A study of Mus musculus with 6 samples.

Results

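The 10 genes described here encode the receptors and ligands of the vascular endothelial growth factor (VEGF) and apelin systems: the receptors Kdr, Flt1 and Flt4, the co-receptors Nrp1 and Nrp2, the ligands Vegfa, Vegfb and Vegfc, the apelin receptor Aplnr and its ligand Apln. They were chosen by name, with earlier results of these data known. All 10 were measured, by 24 of the 45101 probe sets on the array, and they are 10 of 18193 genes with a probe set assigned to a single gene. Each gene is represented by its brightest probe set on average, and the others are given beside it. No member was lost to a filter.

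VEGF ligands are secreted proteins that bind receptor tyrosine kinases on mesodermal and endothelial cells. The protein of Kdr, called Flk1 or VEGF receptor 2, carries most of the signal and marks the mesoderm from which blood and vessels arise. Flt1 binds VEGF-A and VEGF-B tightly and acts largely as a sink, Flt4 is the receptor for VEGF-C, and the neuropilins are co-receptors that also bind class 3 semaphorins. Aplnr is a G-protein-coupled receptor found on early mesoderm and on endothelium.

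RNA came from Ldb1-/- and Ldb1+/+ mouse embryonic stem (ES) cells that had been grown as embryoid bodies for 4 days and from which Flk1+ cells, called BL-CFCs in the labels and taken as the culture equivalent of the haemangioblast, were isolated. There were 3 arrays of Ldb1-/- (knockout) and 3 of Ldb1+/+ (wild-type) cells, each named a biological replicate and numbered 1 to 3. LDB1 is an adaptor that brings LIM-domain proteins together. In blood cells it acts in complexes with GATA1, TAL1 and LMO2. The sources used here do not say which part of Ldb1 was deleted, how many ES clones each genotype stands for, or how the Flk1 gate was set. Nor do they say that the replicates came from separate clones, so p-values measure the spread between these arrays. Since the cells were isolated by the protein that Kdr encodes, the Kdr level is not independent of the isolation.

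Values are log2 expression levels, so a difference of 1 is a doubling. Levels of different genes are not compared, because probe sets differ in how brightly they read the same amount of RNA, and the values carry no detection call. Array medians lay between 5.71 and 5.77. Wild-type replicate 3 had the narrowest spread, with quartiles of 4.37 and 7.92, against 4.22 to 4.28 and 8.15 to 8.27 in the others. Both replicate 3 arrays stood apart in control probe sets: the 5′ control of Gapdh read 12.93 in knockout and 12.93 in wild-type replicate 3, against 10.19 to 11.11 in the other arrays. The targeted gene, Ldb1, was read by 1 probe set at 7.25, 6.60 and 8.25 in knockout replicates 1, 2 and 3, against 7.78, 7.31 and 8.31 in wild-type ones, with a limma adjusted p of 1.00. In each of the 3 pairs the knockout array read lower, with a limma adjusted p of 0.481 in the fit with the replicate number as a block. Without both replicate 3 arrays and with that block it was called, at -0.62 (limma, adjusted p = 0.0181). That setting was chosen after seeing the data and called 815 of 18193 genes, against 62 with the block in all 6 arrays. The Ldb1 probe set may lie outside the deleted part, so it does not check the genotype. Of the haemangioblast and endothelial markers the 2 brightest were Etv2, at 12.11 ± 0.70 in knockout and 11.66 ± 0.06 in wild-type arrays, and Lmo2, at 11.87 ± 0.43 in knockout and 11.24 ± 0.46 in wild-type arrays (SD, n = 3 each). Both were higher in knockout arrays on average, while of all 18 listed markers 9 were lower and 9 higher.

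The comparison asked whether loss of Ldb1 altered the machinery by which these precursors receive VEGF and apelin signals. None of the 10 members passed the test (limma with Benjamini-Hochberg adjustment over 18193 genes, adjusted p = 1.00 for each), and 0 of 10 had an unadjusted p under 0.05. Over all genes 4, or 0.022%, passed, and 3.85% had an unadjusted p under 0.05. With the replicate number as a block, which compares arrays of the same number, again 0 of 10 members passed in limma, against 62 genes or 0.341% of all. In that fit 3 members, Kdr, Nrp2 and Aplnr, had an unadjusted p under 0.05, against 8.94% of all genes. Among the members 7 were lower and 3 higher in knockout cells, with a median difference of -0.10, while 53.7% of all genes were lower, with a median of -0.01. The median size of the difference, whatever its sign, was 0.16 for the members and 0.11 for all genes. No member differed by more than 1, a size that 0.792% of all genes passed. The groups overlapped for all 10, whereas 4.47% of all genes were lower and 3.45% higher without overlap. Of the 24 probe sets 0 passed in limma in either fit, against 0.0222% of all probe sets without the block and 0.0555% with it. In the blocked fit 7 of the 24 had an unadjusted p under 0.05, against 7.59% of all. In bulk RNA such as this, fewer cells of a type and less RNA per cell cannot be told apart.

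**Figure D1:**
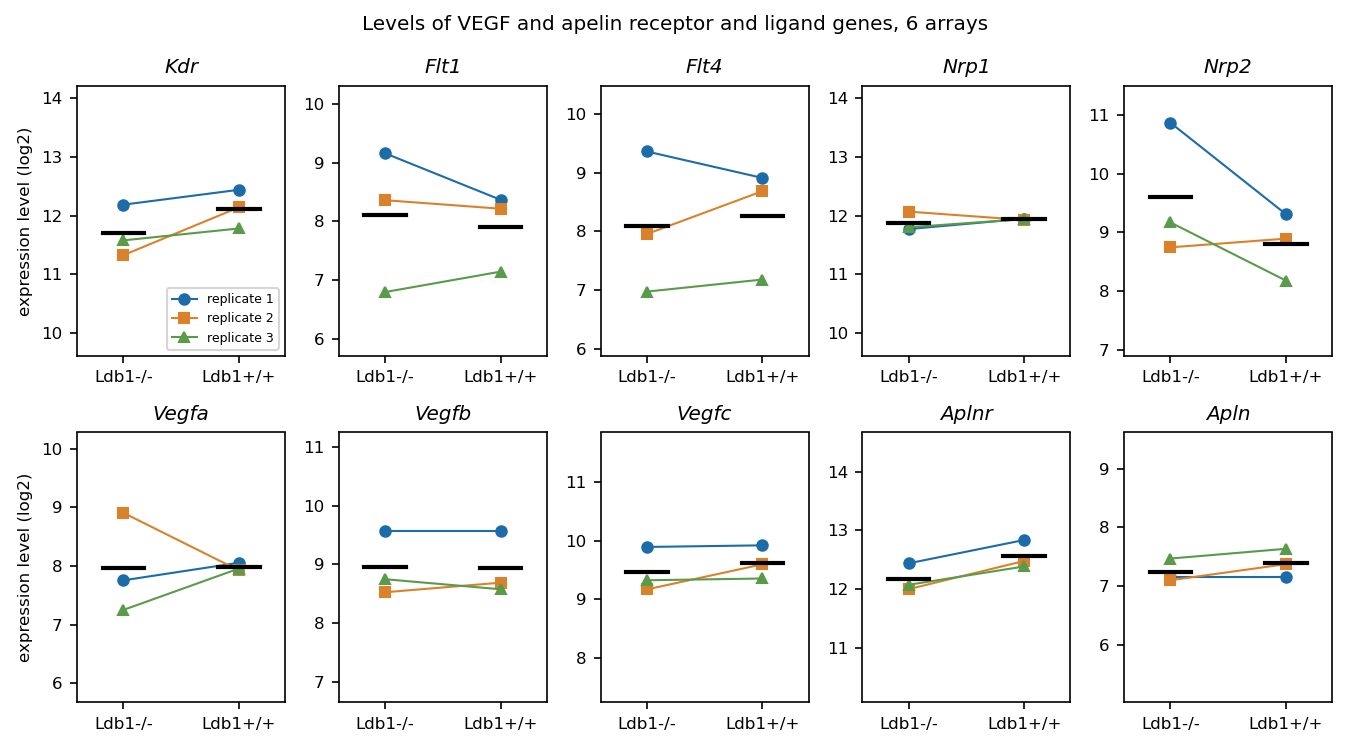
Expression level (log2, vertical axis) of each gene in Ldb1-/- arrays on the left and Ldb1+/+ arrays on the right of each panel, with lines joining arrays of the same replicate number and black bars at the group means. All panels span the same range of log2 units. The lines of Kdr and Aplnr all run lower in knockout arrays, and Flt1 and Flt4 are lowest in both replicate 3 arrays.

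The promoters of these genes were read for the 2 short motifs that LDB1 complexes are known to meet in blood cells, where GATA factors bind GATA and TAL1 binds the E-box CANNTG. The windows were the 250 bases before each annotated start, from RefSeq on build GRCm38.p6. Those of Kdr, Flt1 and Nrp1, and the Vegfa window at chr17:46025164-46025413, lie inside the gene spans given below. They are thus not upstream of the whole gene. GATA was searched on both strands (as GATA or TATC), while CANNTG reads the same on either strand. Neither motif overlapped the other in the sequences shown. An entry was present for 9 of the 10 members, with 10 windows since Vegfa has 2 starts. GATA was found in 3 of these windows and CANNTG in 5, against 53.6% and 66.2% of all 32851 windows. Both were found in 2 windows, those of Kdr and Apln, against 37.3% of all, and neither in 4, those of Flt1, Nrp1, Nrp2 and Vegfc. A match is a string of letters and not a bound site. The sequences chosen are the stretches around both matches of Kdr, the gene of the sorted protein (chr5:75978541-75978570 and chr5:75978617-75978646, minus strand), and the windows of Apln (chrX:48034854-48035103, minus strand), whose receptor was lower in all 3 pairs, of Flt4 (chr11:49609429-49609678, plus strand), which moved with the replicate number, and of Nrp2 (chr1:62703067-62703316, plus strand), the member with the largest difference. They run 5′ to 3′ with the motifs in capitals.
Kdr, around the GATA match at position -102: aacccaaacctggTATCcagtggggggcgt
Kdr, around the CANNTG match at position -179: cagatttgctctCAGATGcgacttgccgcc
Apln: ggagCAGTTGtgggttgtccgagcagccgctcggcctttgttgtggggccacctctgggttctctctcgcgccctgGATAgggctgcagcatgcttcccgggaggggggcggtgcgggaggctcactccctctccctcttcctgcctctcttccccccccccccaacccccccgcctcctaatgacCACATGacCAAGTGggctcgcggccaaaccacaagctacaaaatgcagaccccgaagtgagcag
Flt4: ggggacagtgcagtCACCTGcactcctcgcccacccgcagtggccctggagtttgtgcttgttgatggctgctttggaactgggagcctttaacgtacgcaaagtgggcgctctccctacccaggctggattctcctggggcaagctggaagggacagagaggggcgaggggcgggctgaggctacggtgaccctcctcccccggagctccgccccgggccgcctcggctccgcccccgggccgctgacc
Nrp2: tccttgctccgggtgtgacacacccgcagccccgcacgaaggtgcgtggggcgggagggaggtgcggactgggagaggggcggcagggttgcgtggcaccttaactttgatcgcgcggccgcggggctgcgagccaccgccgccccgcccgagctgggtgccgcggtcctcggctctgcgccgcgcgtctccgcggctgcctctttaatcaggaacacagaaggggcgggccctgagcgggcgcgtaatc
Positions count back from the annotated start that each window precedes, with -1 the base before it. For Kdr that start lies inside the gene span. The Nrp2 window holds no capitals because neither motif is in it.

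Kdr, at chr5:75932827-75979072 (GRCm38.p6), was lower in the knockout array of every pair. Its single probe set read 12.19, 11.33 and 11.58 in knockout replicates 1, 2 and 3 and 12.44, 12.14 and 11.78 in wild-type replicates 1, 2 and 3. The groups overlapped, since knockout replicate 1 lay above 2 of the wild-type arrays. The difference was -0.42 (95% interval -1.06 to 0.22) without the block and had an interval of -0.81 to -0.04 with it (limma, blocked adjusted p = 0.493). By pair it was -0.25, -0.81 and -0.20, so pair 2 held most of it. Without knockout replicate 2 the mean difference was -0.24, and without wild-type replicate 1 it was -0.26, while without knockout replicate 1 it was -0.67.

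Flt1, at chr5:147561604-147726438, differed among replicate numbers far more than between genotypes. The kept probe set read 9.16, 8.36 and 6.79 in knockout replicates 1, 2 and 3, against 8.37, 8.22 and 7.14 in wild-type ones. Both replicate 3 arrays were the lowest of their genotype, and the groups overlapped. The difference was 0.20 (95% interval -1.28 to 1.67), made up of 0.79, 0.14 and -0.35 in pairs 1, 2 and 3. Its wide interval leaves room for a difference of more than 1 in either direction without the block, and with the block the interval was -0.32 to 0.71. Of the 3 other Flt1 probe sets, the brighter pair gave the same order of arrays within each genotype, with 7.83, 7.18 and 5.31 in knockout and 7.16, 6.88 and 5.67 in wild-type arrays for the first. The other of that pair read 8.11, 6.73 and 4.97 in knockout arrays, against 7.43, 6.46 and 5.17 in wild-type arrays. The dimmest did not share this order, at 5.77, 5.48 and 5.20 in knockout and 4.96, 5.54 and 5.02 in wild-type arrays. All 4 probe sets were higher in knockout arrays on average, by 0.20 to 0.31. In the 3 brighter ones it was pair 3 that went the other way, and in the dimmest it was pair 2.

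Flt4, on chromosome 11 (chr11:49609679-49652739), had the same order of replicate numbers as Flt1. It read 9.36, 7.95 and 6.97 in knockout arrays and 8.91, 8.68 and 7.18 in wild-type arrays. Replicate 1 was the highest and replicate 3 the lowest in both genotypes, and the groups overlapped along their whole range. The difference was -0.16 (95% interval -1.79 to 1.47), with 0.45, -0.73 and -0.21 by pair. The other Flt4 probe set, which was dimmer, spanned only 5.93 to 6.51 in knockout and 6.22 to 6.32 in wild-type arrays, a difference of -0.05. Genes of chromosome 11 were lower in general, with a median difference of -0.17 over 1443 genes, which is about the size of the Flt4 value. For its genes above the median level the median was -0.23, and Flt4 lay 0.07 above that. What part the shift of chromosome 11 has in Flt4 was not tested.

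The split of each gene's variation shows how the receptors differ in this. Replicate number took 90.0% of the sum of squares of Flt1 and 91.7% of that of Flt4, while genotype took 1.50% and 0.834%. For Vegfb the number took 97.7%, and for Vegfc 81.2%. Over all genes the median was 53.4% for number and 8.93% for genotype, and 23.6% of genes had more than 80% from the number, as had these 4 of 10 members. Genotype took more than 30% in Kdr, at 30.7%, and in Aplnr, at 51.3%, against 20.3% of all genes. Over the 6 arrays Flt1 and Flt4 had a Pearson correlation of 0.94, and Kdr had 0.95 with Vegfc and 0.95 with Aplnr. These values describe 6 arrays that share their replicate numbers and normalisation. Of 11198 genes above the median level, 59, or 0.527%, correlated with Kdr above 0.95. The 3 most like Kdr were Map2k3 (0.995), Unc80 (0.993) and Atp5a1 (0.993).

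**Figure D2:**
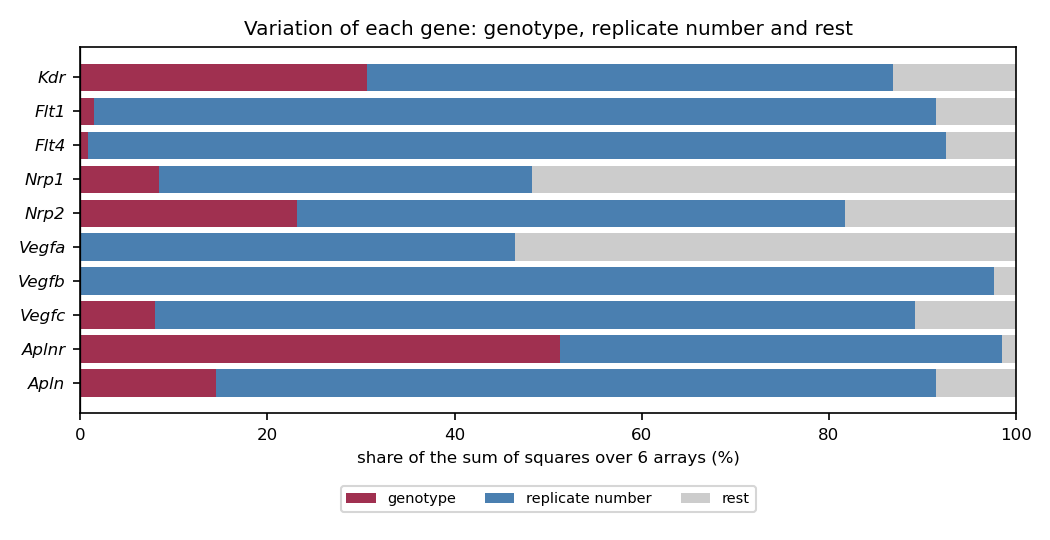
Share of the sum of squares over the 6 arrays (%, horizontal axis) that lies between genotypes, between replicate numbers and in the rest, for each gene. Replicate number holds 90.0% in Flt1 and 97.7% in Vegfb, and genotype holds its largest share among the members, 51.3%, in Aplnr.

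The 18 haemangioblast and endothelial markers had a median difference of -0.02, from -1.04 to 0.66, with 9 lower and 9 higher. Of them 0 were called in limma without or with the block, and 0 and 2 had an unadjusted p under 0.05. Their medians by pair were 0.50, 0.09 and -0.55, beside 0.79, 0.14 and -0.35 for Flt1. For Flt4 the pairs gave 0.45, -0.73 and -0.21, so its pair 2 went the other way from the markers. Flt1 and Flt4 were lowest in both replicate 3 arrays. Of the 18 markers 15 were lowest in replicate 3 among the knockout arrays, while among the wild-type arrays 6 were lowest and 5 highest in replicate 3. The summed level of the list, on the linear scale, ran from 10890 to 17369 in knockout and from 9734 to 13039 in wild-type arrays. The part of endothelial cells in the Flt1 and Flt4 values was not tested.

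Neither neuropilin gene passed the test, and the difference between them was not tested. Nrp1, at chr8:128358591-128505476, was nearly level, at 11.77, 12.07 and 11.80 in knockout arrays and 11.95, 11.93 and 11.94 in wild-type arrays. Wild-type arrays lay within 0.01 (SD) of each other and inside the knockout range. The difference was -0.06, with a 95% interval of -0.37 to 0.26, the narrowest among the members without the block. Of its other 3 probe sets 2 were lower, by 0.08 and 0.13, and 1 was higher, by 0.24, in all 3 pairs. That higher probe set read 9.05, 10.23 and 9.97 in knockout and 8.80, 10.10 and 9.64 in wild-type arrays, so its lowest arrays were those of replicate 1, where the 2 lower ones had theirs in replicate 3. Genes of chromosome 8 were higher in general, with a median of 0.15 over 932 genes, and Nrp1 lay 0.21 below that median, or 0.32 below that of genes above the median level, 0.26.

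Nrp2, at chr1:62703317-62818692, had the largest difference of the 10 genes, higher in knockout cells. The kept probe set read 10.87, 8.75 and 9.17 in knockout arrays and 9.31, 8.89 and 8.18 in wild-type arrays. Knockout replicate 1 stood alone at the top, and the other 2 knockout arrays lay within the wild-type range. The difference was 0.80, or 1.74-fold (95% interval -0.56 to 2.16; with the block 0.09 to 1.51, limma adjusted p = 0.480). Pairs 1 and 3 gave 1.56 and 0.99, and pair 2 went the other way at -0.15. Without knockout replicate 1 the difference was 0.16, and without wild-type replicate 3 it was 0.49. It was 1.22 without knockout replicate 2, and 0.30 with array weights.

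All 4 Nrp2 probe sets were higher in knockout arrays, by 0.32, 0.80, 0.98 and 1.11. They read 1 gene in the same arrays and are not independent. The dimmest, with the difference of 1.11, read 7.93, 7.01 and 8.36 in knockout arrays, against 6.69, 6.88 and 6.42 in wild-type arrays. Here the groups did not overlap, which held for 1 of 24 member probe sets in the higher direction, against 4% of all probe sets. Of the 24 probe sets 2 had an unadjusted p under 0.05 without the block, against 3.13% of all, and this was 1 of them. Its limma p was 0.0163, with an adjusted p of 1.00 over 45037 probe sets (blocked 0.469). With 3 arrays against 3, an exact two-sided permutation test cannot go below 0.10, the value it gave. In pair 2 the 4 probe sets ran from -0.31 to 0.13, and in pairs 1 and 3 from 0.58 to 1.95.

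**Figure D3:**
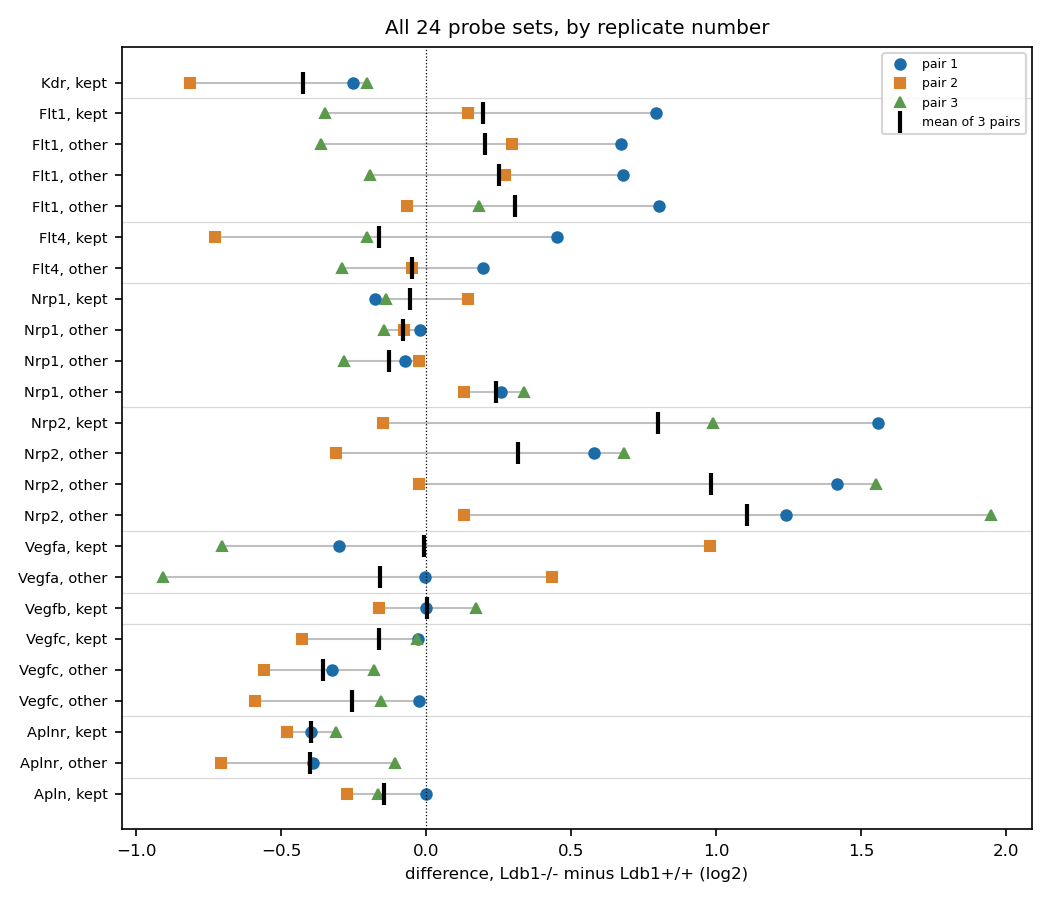
Difference between Ldb1-/- and Ldb1+/+ arrays of the same replicate number (log2, horizontal axis) for all 24 probe sets, with the kept probe set of each gene first. Points are the 3 pairs and black ticks their means. All 4 Nrp2 probe sets have a positive mean, from 0.32 to 1.11, with pair 2 nearest 0 or below it, and both Aplnr probe sets lie below 0 in every pair.

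Other genes of neuropilin signalling showed no call. Of 12 class 3 semaphorin and plexin genes 5 were lower and 7 higher, with a median of 0.04, and 0 were called by limma in either fit, with 0 and 2 at an unadjusted p under 0.05. Sema3f, a ligand of neuropilin 2, read 10.98, 11.29 and 10.46 in knockout arrays, against 10.73, 11.03 and 12.38 in wild-type arrays. The single high wild-type array, replicate 3, set its difference of -0.47. Plxna4, a plexin that relays semaphorin signals, differed by -0.01.

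Among the ligands, Vegfa was spread widely over knockout arrays and narrowly over wild-type arrays. Vegfa, at chr17:46016993-46032377, read 7.76, 8.91 and 7.25 in knockout arrays and 8.06, 7.93 and 7.96 in wild-type arrays. The 3 wild-type arrays lay close together (SD 0.07) and within the spread of the knockout arrays (SD 0.85). The mean difference was -0.01 (95% interval -0.94 to 0.93), the balance of -0.30, 0.98 and -0.70 in the 3 pairs. Left out singly, knockout replicate 2 gave -0.48 and knockout replicate 3 gave 0.35. The other Vegfa probe set gave the same order of knockout arrays, with 7.42, 7.64 and 6.44, against 7.43, 7.21 and 7.35 in wild-type arrays. Its difference was -0.16. Whether the spread differs between the genotypes was not tested.

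Vegfb, at chr19:6982472-6987651, was at the same level in both genotypes within its error. It read 9.57, 8.52 and 8.74 in knockout arrays and 9.57, 8.69 and 8.57 in wild-type arrays. Replicate 1 was about 1 above the others in both genotypes. The difference was 0.00, with a 95% interval of -0.86 to 0.87 without the block and -0.31 to 0.32 with it. The replicate 1 values were identical to the last deposited digit, as those of 104 of the 45101 probe sets were in these 2 arrays.

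Vegfc, the ligand of Flt4, lies on chromosome 8 (chr8:54077532-54186454). It was slightly lower in the knockout array of each pair, reading 9.90, 9.17 and 9.33 in knockout arrays and 9.92, 9.60 and 9.36 in wild-type arrays. The groups overlapped. The difference was -0.16 (95% interval -0.73 to 0.40), and by pair it was -0.03, -0.43 and -0.03. All 3 of its probe sets were lower in every pair, by a mean of 0.16, 0.35 and 0.26, and 1 of them had a blocked unadjusted p of 0.0406 (limma, adjusted p = 0.625). Since genes of chromosome 8 had a median of 0.15, Vegfc lay 0.31 below its chromosome's median, or 0.42 below that of genes above the median level. That median was 0.26.

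Of the remaining members of the ligand family, Pgf, which binds Flt1, stood at 6.98 ± 0.31 in knockout and 7.07 ± 0.10 in wild-type arrays, and Vegfd, another ligand of Flt4, at 5.19 ± 0.20 in knockout and 5.32 ± 0.38 in wild-type arrays (SD, n = 3 each). With binding partners and processing enzymes, the 14 genes of this group had a median of 0.01, with 7 lower and 7 higher, and 0 called by limma in either fit (0 and 2 at an unadjusted p under 0.05). Itgav, an integrin subunit, differed by 0.25 and Adamts3, a protease that activates VEGF-C, by 0.15. Both had a limma adjusted p of 1.00.

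Aplnr, at chr2:85136360-85139923, gave the most even difference of the 10 genes. The kept probe set read 12.44, 12.00 and 12.07 in knockout arrays and 12.83, 12.48 and 12.38 in wild-type arrays. The groups overlapped only in that knockout replicate 1 was above wild-type replicate 3. The difference was -0.40, or 1.32-fold lower in knockout cells, with a 95% interval of -0.84 to 0.04. With the block the interval was -0.70 to -0.10, and the call was still not reached (limma, unadjusted p = 0.0166, adjusted p = 0.378). The pairs gave -0.40, -0.48 and -0.31, and 1.52% of the sum of squares was left outside genotype and number.

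The second Aplnr probe set gave the same difference, -0.40, in arrays that did not overlap: 9.05, 8.83 and 9.15 in knockout arrays, against 9.44, 9.54 and 9.25 in wild-type arrays. It was the 1 member probe set of 24 without overlap in the lower direction, against 3.49% of all probe sets. Its unadjusted p was 0.0278 (limma, adjusted p = 1.00, blocked 0.626), and the exact two-sided permutation test gave 0.10, the smallest it can. By pair it read -0.39, -0.71 and -0.11. Left out singly, wild-type replicate 1 gave a difference of -0.26 in the kept probe set and knockout replicate 1 gave -0.53, with the other arrays between them.

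Apln, the X-linked ligand gene (chrX:48025146-48034853), read 7.16, 7.10 and 7.47 in knockout arrays and 7.16, 7.37 and 7.63 in wild-type arrays. The groups overlapped, and replicate 3 was the highest in both genotypes, the reverse of Flt1 and Flt4. The difference was -0.15 (95% interval -0.57 to 0.27), with 0.00, -0.27 and -0.17 by pair. As for Vegfb, the replicate 1 values were identical to the last deposited digit. Apela, which encodes the other known ligand of this receptor, stood at 5.88 ± 0.56 in knockout and 5.99 ± 0.64 in wild-type arrays (SD, n = 3 each). Genes of chromosome X had a median difference of -0.02 over 617 genes, and Apln lay 0.13 below it. On chromosome Y the median was -0.19 over 9 genes, and -3.72 over the 2 above the median level. What part that Y difference between the cells has in other values was not tested.

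Kdr, Vegfc and Aplnr were thus the 3 members lower in all 3 pairs, against 14.9% of all genes, and 0 members were higher in all 3 pairs, against 13.5%. Over probe sets 8 of 24 were lower in all 3 pairs, against 11.7% of all, and 6 of the 8 belong to these 3 genes while 2 belong to Nrp1. Another 2 of 24, 1 of Nrp1 and 1 of Nrp2, were higher in all 3 pairs, against 15.7%. Probe sets of 1 gene share their RNA, so these counts do not add up to separate observations.

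**Figure D4:**
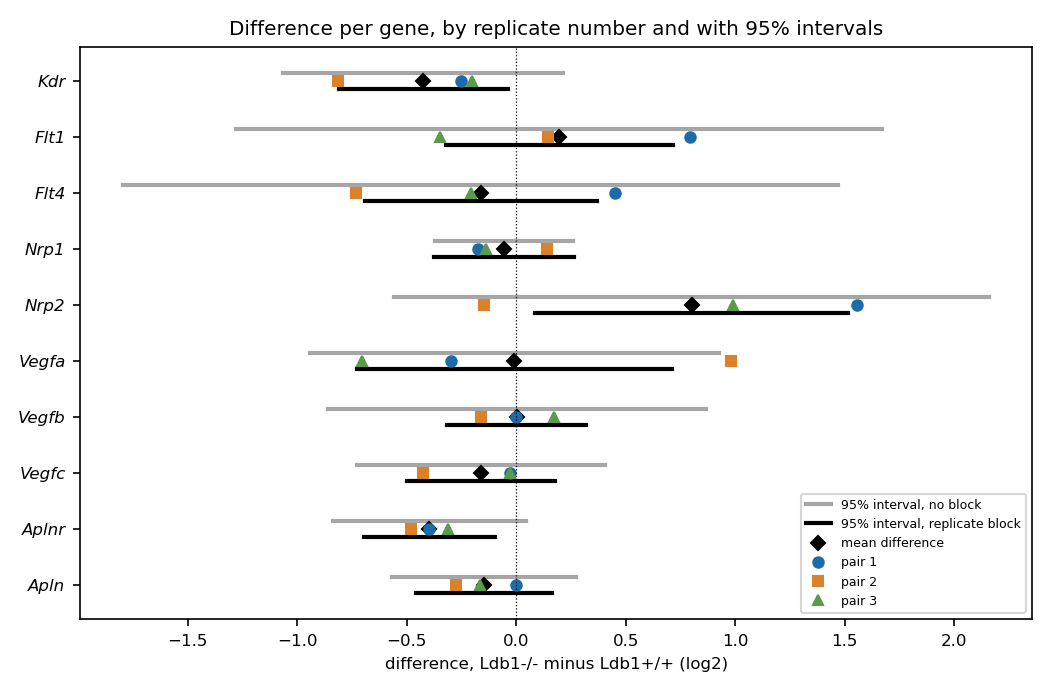
Mean difference between Ldb1-/- and Ldb1+/+ arrays (log2, horizontal axis; diamonds), the 3 pairs (coloured points) and the 95% intervals of limma without the replicate block (grey) and with it (black) for each gene. The grey intervals of all 10 genes include 0, and the black ones leave it out for Kdr, Nrp2 and Aplnr before any adjustment for the number of genes tested.

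Among genes that relay the signal of these receptors, 1 passed the test, and only in the blocked fit. Of 46 listed genes of VEGF receptor signalling 40 were measured as single genes, 16 lower and 24 higher, with a median of 0.06 beside -0.01 over all genes. In all 3 pairs 8 were lower and 10 higher, against 14.9% and 13.5% of all genes. Limma called 0 without the block, where 3 had an unadjusted p under 0.05, and 1 with it, where 8 had an unadjusted p under 0.05, against 8.94% of all genes. The called gene was Hspb1, a small heat shock protein that kinases downstream of the receptor phosphorylate. It read 9.87, 9.53 and 9.37 in knockout arrays, against 8.77, 8.60 and 8.23 in wild-type arrays. All knockout arrays lay above all wild-type arrays, as for 3.45% of all genes, and the rise was 2.07-fold (limma, blocked adjusted p = 0.0334, unblocked 0.399). With the block 0.341% of all genes were called. The brightest genes of the group, Cdc42 and Rac1, which are small GTPases of cell movement, differed by 0.14 and 0.03.

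The 23 VEGF response genes, which VEGF is known to induce in endothelial cells, had a median of 0.08, with 8 lower and 15 higher. In all 3 pairs 0 were lower and 7 higher, against 14.9% and 13.5% of all genes. Limma called 0 of them in either fit, and 2 and 3 had an unadjusted p under 0.05 without and with it. Egr1, an immediate early gene, read 11.55, 9.65 and 10.07 in knockout arrays, against 11.77, 9.98 and 9.84 in wild-type arrays, and Ets1, an endothelial transcription factor gene, differed by -0.30. Egr1 was highest in both replicate 1 arrays. The largest difference of the group was that of Dusp6, a phosphatase that dampens ERK signals, at 1.52 (10.61, 8.77 and 10.90 in knockout, against 8.91, 8.47 and 8.35 in wild-type arrays). It did not pass (limma, adjusted p = 1.00, blocked 0.248), and pair 2 was the smallest.

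Of 16 genes of apelin receptor signalling 15 were measured, with a median of -0.06, 10 lower and 5 higher, and 0 called by limma in either fit (1 and 3 at an unadjusted p under 0.05). The inhibitory G-protein subunit genes Gnai3 and Gnai2, through which the receptor signals, differed by 0.06 and 0.04. The 24 known regulators of Vegf and Vegf receptor genes had a median of -0.03, with 14 lower and 10 higher, and 0 called by limma (0 and 5 at an unadjusted p under 0.05). Hif1a, the oxygen-sensing factor that drives Vegfa, stood at 12.45 ± 0.19 in knockout and 12.40 ± 0.17 in wild-type arrays. Etv2, an ETS factor that acts on Kdr, read 12.56, 11.30 and 12.47 in knockout arrays, against 11.62, 11.72 and 11.63 in wild-type arrays. Its low knockout array was replicate 2, where Kdr also had its lowest value. By pair Etv2 gave 0.94, -0.42 and 0.85, against -0.25, -0.81 and -0.20 for Kdr. A link between them was not tested.

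Some markers of other cell types that Flk1+ cells can include did pass the test. Of 18 markers of cardiac mesoderm, which is known to carry Kdr and Aplnr too, 15 were lower, with a median of -0.44. Hand2 was the 1 called, with the block (7.35 ± 0.52 in knockout against 10.05 ± 0.65 in wild-type arrays; limma, blocked adjusted p = 0.00103). Their summed linear level was 12513, 10646 and 10709 in knockout arrays, against 21419, 14359 and 11043 in wild-type arrays, so wild-type replicate 3 lay among the knockout arrays. Of 13 blood markers 12 were lower, with a median of -1.15 and sums of 603 to 840 in knockout and 2094 to 2480 in wild-type arrays. Limma called 1 of them lower without the block, Hbb-bh1, and 7 with it, against 0.022% and 0.341% of all genes called in either direction. The 14 paraxial mesoderm, 11 visceral endoderm and 10 pluripotency markers had medians of -0.23, -0.18 and -0.13. In neither fit did limma call any of them (0, 1 and 1 had an unadjusted p under 0.05, and 2, 2 and 3 with the block). Their summed levels overlapped between the groups, at 756 to 1412 in knockout and 1129 to 2943 in wild-type arrays for paraxial mesoderm. For pluripotency the sums were 7547, 5116 and 15113 in knockout arrays, against 9023, 8321 and 8720 in wild-type arrays. Knockout replicate 3, where Flt1 and Flt4 read lowest, was thus the highest. The pluripotency medians by pair were 0.10, 0.10 and 0.27. The part of the mix of cells in the Kdr, Flt1, Flt4 and Aplnr values was not tested.

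**Figure D5:**
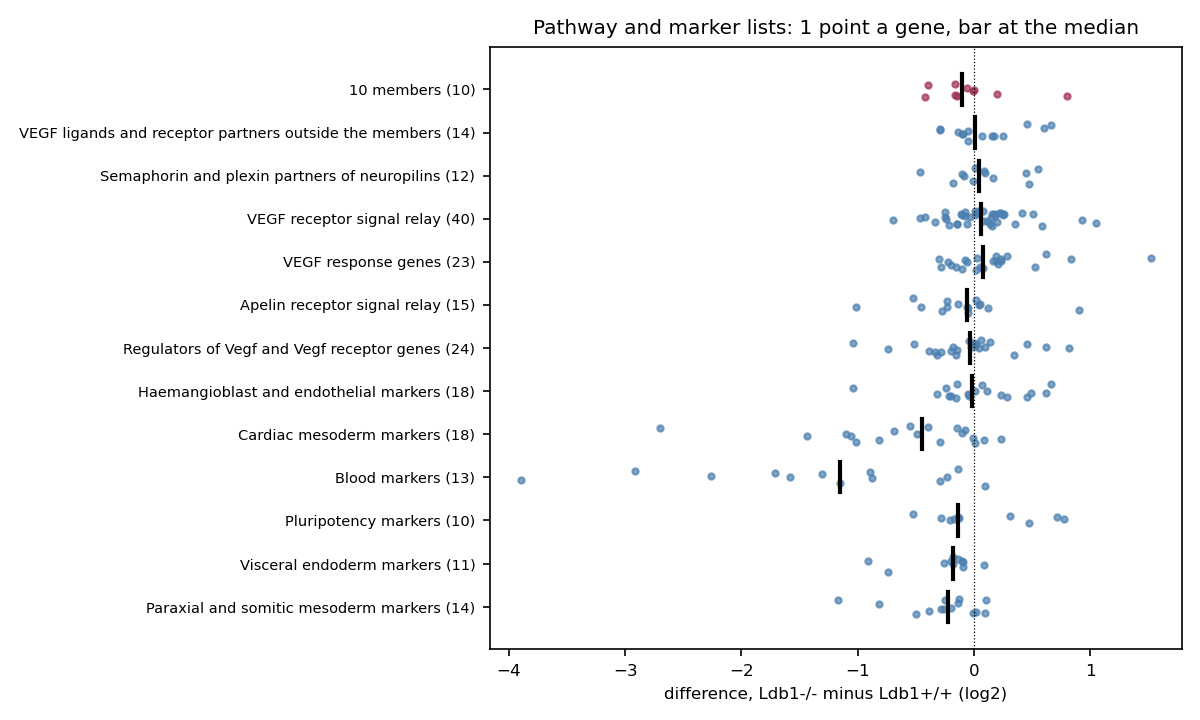
Difference between Ldb1-/- and Ldb1+/+ arrays (log2, horizontal axis) for the 10 members and for each list of pathway and marker genes, with 1 point a gene, a bar at the median and the number of measured genes in brackets. The pathway lists centre within 0.08 of 0, while the blood markers centre at -1.15 and the cardiac mesoderm markers at -0.44.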

How the data were processed

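RNA from 3 Ldb1-/- and 3 Ldb1+/+ samples was hybridised as biotin-labelled cRNA to the Mouse Genome 430 2.0 array. The deposited values are log2 expression levels per probe set, and the authors used RMA and affy, per the submitters' processing notes, with versions and genome build not given in the sources used here. RMA as usually run corrects background, sets arrays to a common distribution and summarises probes, which can shrink differences of dim probe sets. The precision is limited by the number of arrays.

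Of 45101 probe sets, 64 controls were left out of tests. The array annotation gave 1 gene to 34945, several to 932 and none to 9160. Symbols were updated through gene IDs to RefSeq (GRCm38.p6). Limma 3.58.1 in R 4.3.3 (lmFit, eBayes, Benjamini-Hochberg, threshold 0.05) was fitted over 18193 genes, each by its brightest probe set, and over 45037 probe sets. The fits were tested on simulated data. Figures used matplotlib 3.10.9.

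The replicate numbers come from the sample titles. Deviations from the genotype mean correlated at 0.698, 0.350 and 0.446 between arrays numbered 1, 2 and 3, each above 0.1, so the numbers were taken to pair the arrays. Between unlike numbers they ran from -0.501 to -0.0142, though deviations that sum to 0 within a genotype push such values down. The pairing was judged on the same values that the blocked fit uses. What part shared handling of arrays, such as both of replicate 3, has in these correlations was not tested.

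The members and lists were chosen with earlier results of these data known. Beside the members and Ldb1, genes were named where they passed either fit (up to 6 a list) or were the 2 brightest of a list; the 3 genes most like Kdr were added, and listed genes not needed for a statement are not named. Pgf, Vegfd, Apela and Dusp6 were chosen after their values were seen. Alternatives were the replicate block, each array left out, array weights, a trended robust variance, a second quantile normalisation, median centring, a filter on dim probe sets and other choices of probe set.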

Additional observations from a re-analysis of the deposited data

How the results depend on the processing

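Across 17 alternatives the 10 members, and across 14 their 24 probe sets, gave 0 calls in limma. With the replicate block 62 of 18193 genes were called, with array weights 68, without both replicate 3 arrays 2 (815 with the block as well) and with a gene's probe sets averaged and the block 48, against 4. With single arrays left out the count ran from 1 to 6. Leaving out both replicate 3 arrays, and averaging probe sets with the block, were chosen after seeing the data. The block changed no call among the members. Their smallest adjusted p over all settings was 0.0750 for Kdr and 0.0879 for Aplnr, without the replicate 3 arrays and with the block.

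Of 169 recomputed member differences 20 had the opposite sign, all of Flt1, Flt4, Nrp1, Vegfa and Vegfb. With single arrays left out, the difference ran from -0.331 to 0.851 for Flt1, -0.794 to 0.400 for Flt4, -0.475 to 0.352 for Vegfa and -0.310 to 0.317 for Vegfb. Array weights gave -0.0322 for Flt1, 0.0278 for Nrp1, 0.395 for Vegfa and -0.0383 for Vegfb, and repeated quantile normalisation gave -0.0412 for Vegfb. Without both replicate 3 arrays Vegfa was at 0.340 and Vegfb at -0.0814, with or without the block. The cause was not tested. Kdr, Nrp2, Vegfc, Aplnr and Apln kept their direction in all settings run; with single arrays left out, they ran from -0.668 to -0.238 for Kdr, 0.163 to 1.22 for Nrp2, -0.377 to -0.0138 for Vegfc, -0.531 to -0.262 for Aplnr and -0.260 to -0.0243 for Apln. When probe sets marked as reading several transcripts were left out, Vegfb had no value.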
